A study of Danio rerio with 17 samples.

Results

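The comparison concerns the 4 bulk RNA-seq libraries of adult zebrafish liver collected at 7 days post cryoinjury (dpci) set against the 4 collected at 3 dpci, 8 of the 17 libraries in the series. They were taken by the ending of their column names in the count table, and no sham library enters the contrast. All injured fish were Tg(fabp10a:NLS-mCherry) adults, which carry a red nuclear reporter driven by a hepatocyte promoter, and all were injured on the ventral lobe with a probe cooled in liquid nitrogen. The 5 sham libraries (same transgene, probe at room temperature) and the 4 libraries at 1 dpci enter the same fit. There they help to set the low-count filter and the estimate of spread behind each p-value, and otherwise only their levels are given. The paper describes RNA-seq of the injured region of the ventral lobe and of the contralateral lobe. The labels do not name the lobe sampled, so the lobe of each library is not known here. The methods state that 3 livers were pooled per tube, so that each library is a mixture of animals, and the sources differ on whether the replicates of a group are separate pools or technical replicates. The p-values therefore measure the spread between libraries of the same group, estimated over all 17, which may be technical.

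After injury the liver passes through an early phase in which hepatocytes secrete acute phase proteins and neutrophils and macrophages enter the tissue. Hepatocytes then make ribosomes, replicate their DNA and divide, and the enzymes of intermediary metabolism, which are held low early after injury in many models, are restored as the tissue returns to its resting function. Day 3 lies in the growth phase and day 7 near its end in many acute injury models. The paper reports a longer course for cryoinjury. By its account hepatocyte proliferation peaked between these days, and the lesion was still visible on the later day. The contrast therefore addresses what differs between these days, and growth was not taken to have ended by the later day.

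Of 8513 entries in the table, 8412 passed the filter on low counts and were tested. Genes were called at the thresholds given in the methods, an absolute log2 fold change of 1.5 and an unadjusted P of 0.05. At 7 dpci 103 entries were called higher and 99 lower than at 3 dpci, which is 1.22% and 1.18% of those tested. At P of 0.05 with no limit on the fold, 368 entries were higher (4.37%) and 251 lower (2.98%), 619 in all, where 420.6 would be reached by chance if the p-values were uniform. No entry passed Benjamini-Hochberg adjustment in edgeR's quasi-likelihood test, the smallest adjusted P being 0.0582 for the entry BX908782.3, while DESeq2 gave 37 adjusted calls and edgeR's exact test 15. These counts come from fits of all 17 libraries. A quasi-likelihood fit of the 8 libraries alone tested 8139 entries. It gave 258 higher and 185 lower at P of 0.05, with 81 and 66 called, so the number past P depends on the libraries in the fit. In what follows "rose" and "fell" denote genes past the unadjusted P at 7 dpci relative to 3 dpci, "called" denotes genes that also pass the fold threshold, and no such gene passed the adjustment in the quasi-likelihood test. For the gene lists below, counts of rises and falls are to be read beside the shares over all entries, 4.37% and 2.98%. Calls higher and lower are to be read beside 1.22% and 1.18%. All 4 libraries at 7 dpci lay above every library at 3 dpci for 153 entries (1.82%) and below every one for 121 (1.44%). Among the called genes 29 of 103 and 25 of 99 separated the groups in this way. When each of the 8 libraries was left out in turn, 27 of the 103 higher calls and 20 of the 99 lower calls were made in all 8 fits. The names of 7 dpci replicates 2 and 4 lack a letter R that those of replicates 1 and 3 carry, and without both, when 2 libraries remain at 7 dpci, 72 of the 147 genes examined singly that were past P lost it and 6 turned. Of the 55 among them past P with any 1 library left out, 10 lost it without these 2, namely tfr1b, BX908782.2, zgc:171242, serpind1, dnaja2a, nupr1b, gpx4b, fthl28, nfil3-2 and rorcb.

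Total counts ranged from 5962480 to 6745858 per library at 7 dpci and from 5806843 to 6490212 at 3 dpci. Levels are CPM, counts relative to a library total scaled by edgeR's TMM factors, so that they compare libraries for 1 gene and not genes with each other. A single entry named for the mitochondrial chromosome took 27% to 45.17% of the counts at 7 dpci and 25.06% to 33.36% at 3 dpci. The median log2 fold change of all entries was 0.04 with TMM factors and -0.07 with column totals as the scaling, and higher entries made up 59.5% of those past P of 0.05 with the first and 46.3% with the second. The libraries 7 dpci replicate 1 and 3 dpci replicate 4 stood apart together from the other 6 on the first principal component (27.5% of the variance), and the correlation between libraries was 0.776 to 0.862 within 7 dpci, 0.8 to 0.916 within 3 dpci and 0.756 to 0.878 between the groups. The difference between the groups was therefore not larger than the spread within them over all genes, and results that rest on either library are given with and without it. In bulk tissue, fewer cells of a type and less RNA per cell cannot be told apart.

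**Figure D1:**
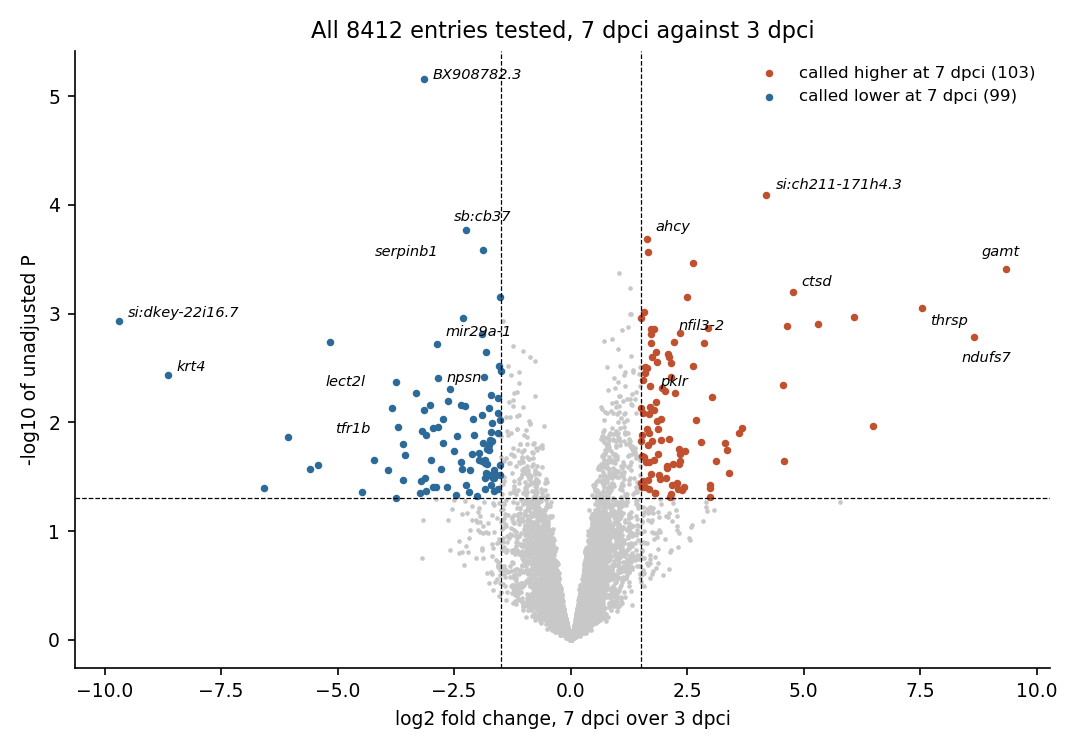
Each point is 1 of the 8412 entries tested, plotted by its log2 fold change at 7 dpci over 3 dpci (horizontal axis) and by -log10 of its unadjusted P (vertical axis), with dashed lines at the thresholds. The 103 entries called higher and the 99 called lower are coloured, and BX908782.3 has the smallest P.

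The genes with the largest falls that separated the libraries of both times were mostly low in number of reads, apart from BX908782.3, sb:cb37 and serpinb1. BX908782.3, annotated as similar to the complement-regulating glycoprotein CD59, had 203, 308, 190.0 and 268 CPM in the 4 libraries at 7 dpci, against 3283, 741, 1195 and 3331 CPM at 3 dpci. Every library at 7 dpci was thus far below the lowest at 3 dpci, with a log2 fold change of -3.14 ± 0.49 (SE). Its level averaged 208 CPM in sham, 1373 on day 1, 2137 on day 3 and 242 on day 7. The entry BX908782.2 from the same clone fell with it, at 1051, 29.2, 42.1 and 24.1 CPM at 7 dpci against 3441, 192, 1160.1 and 11614 CPM at 3 dpci, and here 7 dpci replicate 1 reached into the range of 3 dpci. Its log2 fold change was -3.84 ± 1.26 (SE), -7.01 without 7 dpci replicate 1 and -2.48 without 3 dpci replicate 4. Reads shared between 2 entries of 1 clone could be split by the counting, and their separate values are uncertain for that reason.

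The gene sb:cb37 had 234, 119.6, 78.9 and 159 CPM at 7 dpci and 1435, 327, 345 and 683 CPM at 3 dpci, with a log2 fold change of -2.24 ± 0.47 (SE). serpinb1, an intracellular inhibitor of serine proteases that in mammals restrains neutrophil proteases, had 87.6, 80.7, 52.6 and 94 CPM at 7 dpci against 509.7, 202, 188 and 259 CPM at 3 dpci. Neither gene overlapped between the times, and serpinb1 had a log2 fold change of -1.88 ± 0.41 (SE), with an adjusted P of 0.383 in edgeR's quasi-likelihood test. pcsk6, a proprotein convertase that cleaves growth factor precursors, was at 3.05, 2.63, 5.77 and 2.95 CPM at 7 dpci and at 9.01, 26.5, 14.0 and 21.5 CPM at 3 dpci, with a log2 fold change of -2.31 ± 0.59 (SE). The entry mir29a-1, the precursor of a microRNA, had 0.61, 0.985, 0.427 and 1.12 CPM at 7 dpci and 4.40, 8.83, 8.89 and 1.78 CPM at 3 dpci. It fell by 2.86 on the log2 scale, and the mature microRNA was not measured by these libraries. LOC110438541, an uncharacterised non-coding gene, was at 2.29, 1.31, 4.27 and 2.53 CPM at 7 dpci and 9.22, 6.33, 4.94 and 18 CPM at 3 dpci (log2 fold change -1.90 ± 0.50 (SE)). These 5 genes and BX908782.3 kept P of 0.05 in all 8 fits with 1 library left out.

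tfr1b, a transferrin receptor that takes up iron, had 8.85, 0.164, 0.214 and 0.14 CPM at 7 dpci and 29.1, 43.6, 43.0 and 10.2 CPM at 3 dpci. The 3 libraries below the floor of 3 counts at 7 dpci stand beside 7 dpci replicate 1, which was close to the lowest library at 3 dpci, and the log2 fold change of -3.71 ± 1.3 (SE) became -7.38 without that library. For si:dkey-22i16.7, 2 counts were found over all 4 libraries at 7 dpci and 2824 over those at 3 dpci, a ratio of pooled CPM of 1324 (366 to 10935, exact counting interval). Nearly all of these counts came from 3 dpci replicate 4, at 332 CPM, and the fitted log2 fold change of -9.69 became -3.55 without it. The remaining falls of this kind were si:dkey-94e7.1 (-2.10), fam114a1 (-1.97), tusc3 (-1.84) and glb1l (-1.83, a galactosidase-like gene), all given as log2 fold changes. Each of the 4 lost P of 0.05 in at least 1 fit with a library left out, with a log2 fold change of -1.5 for si:dkey-94e7.1 without 3 dpci replicate 2 and of -1.58 for fam114a1 without 3 dpci replicate 4. tusc3 was lost without 7 dpci replicates 3 and 4 or 3 dpci replicate 3 (-1.70 to -1.27). glb1l was lost without 7 dpci replicates 1 and 3 or 3 dpci replicates 2 and 3 (-1.81 to -1.43), each left out singly.

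Several plasma proteins of the acute phase were lower at 7 dpci. Of 34 acute phase genes tested, 7 fell (20.6%) and 1 rose at P of 0.05, with a median log2 fold change of -0.55 beside 0.04 for all entries. Of 50 complement and coagulation genes 5 fell (10%) and 1 rose, with a median of -0.41, where 2.98% of all entries fell. The lists share members, among them the fibrinogen genes fgb and fga and the thrombin inhibitor gene serpind1, so their falls are partly the same genes. Both medians stayed below 0 under every scaling and with any 1 library left out, at -0.68 to -0.36 and -0.49 to -0.14. fgb, the beta chain of fibrinogen, had 3581, 3885, 4209 and 3594 CPM at 7 dpci, against 6465, 5027, 4784 and 7880.1 CPM at 3 dpci. All libraries at 7 dpci were below all at 3 dpci, with a log2 fold change of -0.66 ± 0.25 (SE), or -0.51 and past P no longer without 3 dpci replicate 4. fga, the alpha chain, had 3007, 3704, 3230.0 and 3240.0 CPM at 7 dpci against 6548, 4526, 3991 and 6591 CPM at 3 dpci, and was likewise separated. Its log2 fold change of -0.72 ± 0.29 (SE) was not past P without 7 dpci replicate 1 (-0.68), 3 dpci replicate 1 (-0.61) or 3 dpci replicate 4 (-0.61). Both chains had been higher at 1 dpci, at 9337 and 8198 CPM, than in sham, at 4852 and 3158 CPM. This course did not hold for the acute phase list as a whole, which summed to 39449.5 to 54496 CPM at 1 dpci and 53954 to 83772 CPM in sham. The complement and coagulation list summed to 32697 to 52919 CPM at 1 dpci and 30322.5 to 42524 CPM in sham.

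serpind1, heparin cofactor II, which inhibits thrombin, was at 85.3, 78.4, 99.2 and 70.17 CPM at 7 dpci and 211, 144, 132 and 131 CPM at 3 dpci, with a log2 fold change of -0.89 ± 0.31 (SE). c8b, the beta chain of complement component 8, averaged 259.9 ± 18.7 CPM at 7 dpci and 398 ± 94.7 CPM at 3 dpci (SD over 4 libraries). serpind1 and c8b (log2 fold change -0.62 ± 0.23 (SE)) were past P in all 8 fits, whereas c5, which starts the same terminal complement pathway, fell by 0.62 with the call lost without 7 dpci replicate 2 (-0.48) or 3 dpci replicate 1 (-0.48). Serpinf2b, an antiplasmin gene, fell by 1.23, and by 0.57 and not past P without 3 dpci replicate 1. colec11, a collectin of the lectin pathway, was the complement gene that rose, by 0.94, with the call lost without 7 dpci replicate 4 (0.74), 3 dpci replicate 1 (0.88) or 3 dpci replicate 4 (0.72).

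lect2l, a leukocyte-derived chemotaxin gene that is on both the acute phase and the neutrophil list, had 72.2, 14.1, 2.56 and 4.49 CPM at 7 dpci and 905, 23.1, 86.1 and 242 CPM at 3 dpci. The groups overlapped through 7 dpci replicate 1, and the log2 fold change was -3.75 ± 1.14 (SE), -5.47 without that library and -2.32 without 3 dpci replicate 1. agt, the angiotensinogen gene, had 170.4, 255, 126 and 263 CPM at 7 dpci and 535, 273, 296 and 535 CPM at 3 dpci, and averaged 165 CPM in sham and 999.6 CPM at 1 dpci. The times did not overlap for agt, but its log2 fold change of -1.01 ± 0.42 (SE) was past P in 4 of 8 fits only, the 4 others being those without 7 dpci replicates 1 (-0.93) and 3 (-0.84) and 3 dpci replicates 1 (-0.85) and 4 (-0.85). crp2, a C-reactive protein gene, had 219, 647, 668 and 9.82 CPM at 7 dpci against 5985, 3838, 4431 and 12 CPM at 3 dpci, so that replicate 4 of each time was far below the other 3 and the groups overlapped through it. Its log2 fold change of -3.21 ± 1.4 (SE) was lost without 7 dpci replicate 1 (-3.01), 7 dpci replicate 4 (-2.80), 3 dpci replicate 1 (-2.84) or 3 dpci replicate 3 (-3.09). The only acute phase gene past P upward was serpina7, whose 1.07, 1.97, 1.28 and 281 CPM at 7 dpci stand against 9.43, 6.92, 8.57 and 3.2 CPM at 3 dpci. The rise of 3.35 came from 7 dpci replicate 4 and turned to -2.26 without it.

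The most abundant acute phase transcript, tfa (transferrin), was not past the test, at 36714 ± 6620.1 CPM at 7 dpci and 42208 ± 11981 CPM at 3 dpci (SD, 4 libraries each). saa, hamp and hp, genes that rise with interleukin 6 signalling in mammals, also missed P, with log2 fold changes of -2.17, -1.89 and -1.22. For all 3 the highest library at 7 dpci was replicate 1, at 12.5, 57.1 and 874 CPM. Without it hamp and hp fell past P, at -5.54 and -5.11, and saa, which had no count in the other 3 libraries at 7 dpci, was also past P. Without 3 dpci replicate 4 hamp was at 0.28 and saa at -0.60, neither past P. The list of Il6-Stat3 and NF-kB signalling genes, which lie upstream of these, had 1 of 36 members past P upward (stat1b) and none past it downward.

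**Figure D2:**
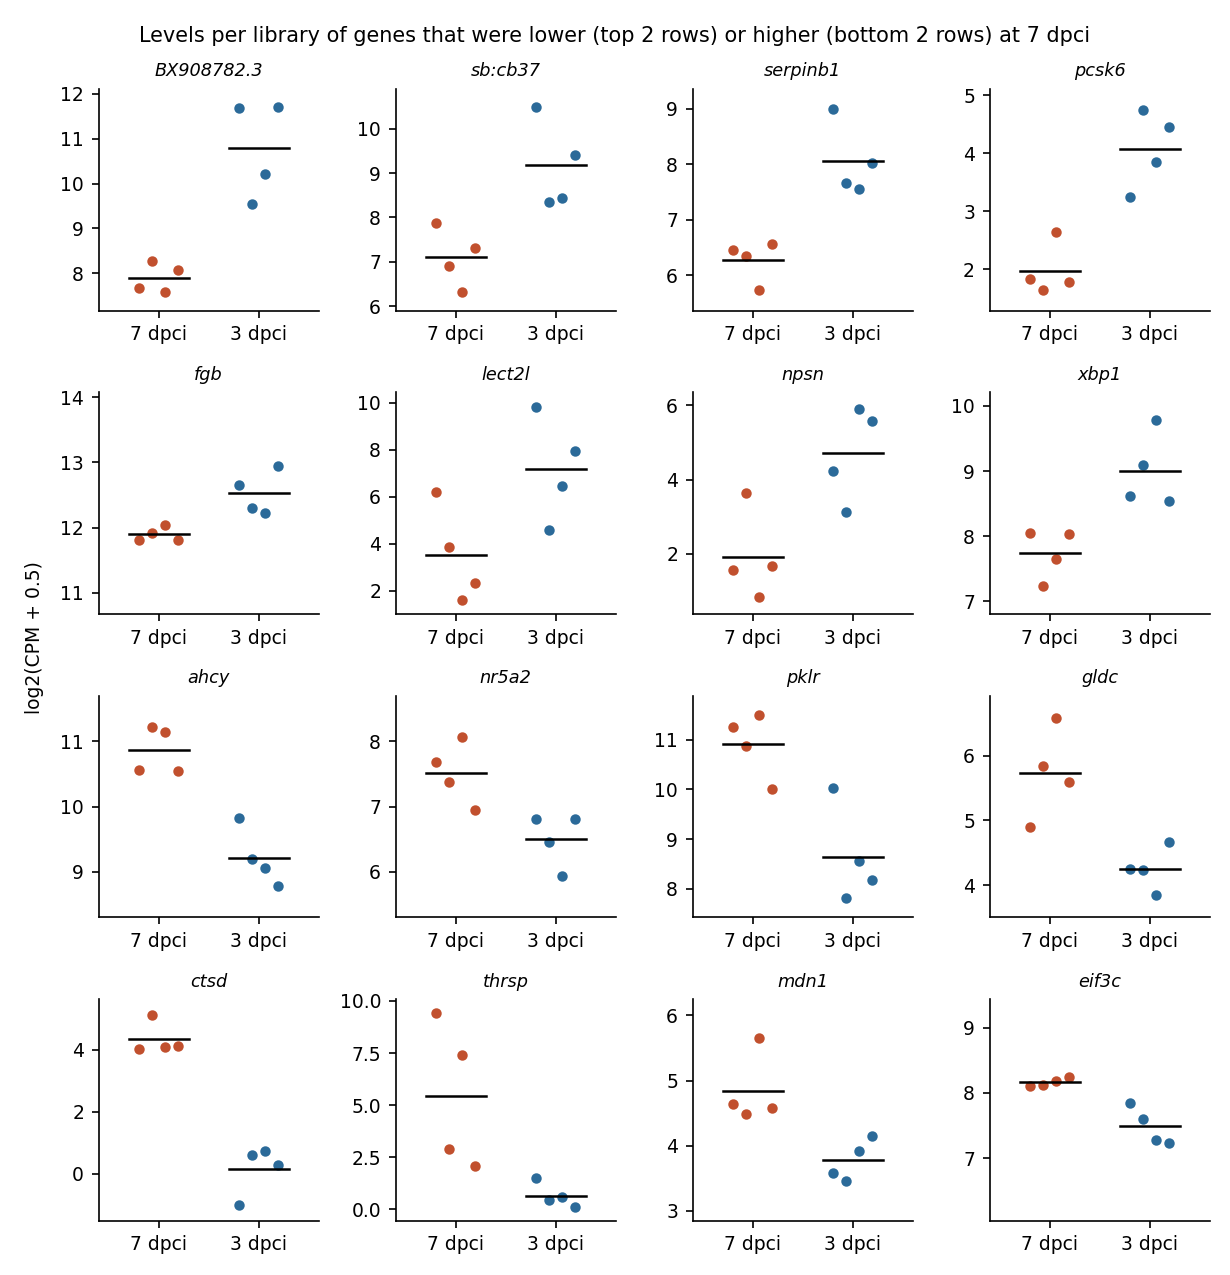
Each panel shows 1 gene as log2(CPM + 0.5) in the 4 libraries at 7 dpci (left, orange) and the 4 at 3 dpci (right, blue), with a line at the group mean. The top 8 genes were lower and the bottom 8 higher at 7 dpci. lect2l, npsn and pklr overlap between the times and the other 13 do not.

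Several neutrophil genes were lower at 7 dpci. Of 18 neutrophil genes tested 6 fell (33.3%, against 2.98% of all entries) and none rose at P of 0.05. The median log2 fold change of -0.67 lay between -1.61 and -0.31 with any 1 library left out. npsn, a secreted metalloprotease of fish neutrophils, had 2.44, 12, 1.28 and 2.67 CPM at 7 dpci and 18.4, 8.24, 59 and 47.2 CPM at 3 dpci. The groups overlapped through 7 dpci replicate 2 and 3 dpci replicate 2, with a log2 fold change of -2.85 ± 0.85 (SE) that was past P in all 8 fits. Its level averaged 6.25 CPM in sham, 0.932 on day 1, 33.3 on day 3 and 4.59 on day 7. mpx, the myeloperoxidase that defines neutrophils, had 44.2, 1.81, 0 and 4.91 CPM at 7 dpci and 7.54, 21.3, 25.7 and 33.3 CPM at 3 dpci. It was not past the test (log2 fold change -0.78 ± 1.02 (SE)), and 7 dpci replicate 1 was the highest of all 8 libraries. Without this library the value was -3.23 and past P. Besides npsn and lect2l the members that fell were mmp9, adam8a, scpp8 and s100a10b. Unlike npsn, lect2l, which is also on the acute phase list, was highest on day 1. It averaged 12 CPM in sham, 1361 on day 1, 314 on day 3 and 23.3 on day 7. mmp9 (-1.75) was lost at -0.70 without 3 dpci replicate 4, and adam8a (-1.53) at -1.33 and -1.37 without 3 dpci replicates 3 and 4. scpp8 (-2.90) was lost without 7 dpci replicates 2, 3 and 4 or 3 dpci replicate 4 (-2.82 to -0.45) and s100a10b (-0.99) without 7 dpci replicates 2, 3 and 4 or 3 dpci replicates 1 and 4 (-1.05 to -0.77) and with column totals (-1.07).

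Both neutrophil attractants of the Cxcl8 family fell. cxcl8b.1 had 0.458, 0.328, 0 and 1.82 CPM at 7 dpci against 6.50, 1.77, 5.60 and 3.08 CPM at 3 dpci, overlapping only through 7 dpci replicate 4 and 3 dpci replicate 2. Its log2 fold change of -2.59 ± 0.80 (SE) was past P in all 8 reduced fits. cxcl8a was at 2.75, 0.656, 0 and 0 CPM at 7 dpci and 5.03, 3.24, 3.95 and 4.50 CPM at 3 dpci, and the times did not overlap. With these few counts its log2 fold change of -2.24 ± 0.99 (SE) was past P in 2 of 8 reduced fits, at -4.10 without 7 dpci replicate 1 and at -2.36 without 3 dpci replicate 2. cxcl12a, a chemokine of stromal cells, fell by 1.51 and was lost without 7 dpci replicates 1, 3 and 4 or 3 dpci replicates 3 and 4 (-1.43 to -1.11). Of 15 chemokine and receptor genes 3 fell and none rose, with a median of -0.45.

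Macrophage genes gave 1 call. Of 28 tested, cxcl8a, which the chemokine list also holds, was the only one past P (3.57%, against 2.98% of all entries that fell). The median of -0.28 ranged from -0.64 to 0.03 with 1 library left out, turning to 0.03 without 3 dpci replicate 3. Without 7 dpci replicate 1 and 3 dpci replicate 4 together the median was -0.85. mfap4, a macrophage marker in zebrafish, averaged 6.17 ± 6.11 CPM at 7 dpci and 12 ± 5.19 CPM at 3 dpci (SD, 4 libraries each), with a log2 fold change of -0.94 ± 0.63 (SE). At 7 dpci replicate 1 was the highest at 15.3 CPM, and without it the value was -1.92 and past P. marco, a scavenger receptor of tissue macrophages, had 8.24, 10.5, 10.3 and 10.7 CPM at 7 dpci and 6.50, 10.3, 16.1 and 10.3 CPM at 3 dpci (log2 fold change -0.13 ± 0.61 (SE)). The summed level of the macrophage list ranged from 551 to 2138 CPM at 7 dpci and from 941 to 1814 CPM at 3 dpci, with the highest value in 7 dpci replicate 1. The markers mpeg1.1, csf1ra, lyz and lcp1 were not analysed here. mhc1uba, a class I antigen presentation gene that had a log2 fold change of -5.59, had its reads in 3 dpci replicates 2 and 3 (72.4 and 243 CPM, against 3.37 CPM or less in the other 6 libraries) and was lost without 7 dpci replicates 1, 2 and 3 or 3 dpci replicate 3 (-5.51 to -3.89). stat1b rose by 2.42 through 7 dpci replicate 4 (85.0 CPM), had a log2 fold change of 0.05 without it and was lost without 7 dpci replicate 4 or 3 dpci replicates 1, 2, 3 and 4 (0.05 to 2.67).

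Few genes of protein folding in the endoplasmic reticulum (ER) passed the test, among them the regulator xbp1, which fell. xbp1, the transcription factor of the unfolded protein response, had 263, 149.8, 201 and 261 CPM at 7 dpci, against 392, 546, 882 and 371 CPM at 3 dpci. Every library at 7 dpci was below every library at 3 dpci and the log2 fold change of -1.32 ± 0.43 (SE) was past P in all 8 fits. The level averaged 368 CPM in sham, 879.7 on day 1, 548 on day 3 and 219 on day 7. Of 57 ER chaperone genes 3 fell (5.26%, against 2.98% of all entries) and none rose. The median of -0.19 ranged from -0.75 to 0.15 with 1 library left out. It turned to 0.02 without 7 dpci replicate 2 and to 0.15 without 3 dpci replicate 4. Without 7 dpci replicate 1 and 3 dpci replicate 4 together the median was -0.51. The other 2 that fell were pdia6, a disulphide isomerase (-1.71, and -0.85 and not past P without 3 dpci replicate 3), and ero1a, an ER oxidase with 8 counts at 7 dpci and 48 at 3 dpci (ratio of 3 dpci to 7 dpci 5.62, 2.64 to 13.8, with the call lost without 7 dpci replicates 1 and 2 or 3 dpci replicate 4, at -1.95, -1.96 and -2.02).

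hspa5, the main ER chaperone, was instead set by single libraries. It had 3537, 130.1, 212 and 81.1 CPM at 7 dpci and 442, 162, 599 and 2443 CPM at 3 dpci, with 1 library of each time more than 3 times the rest. The log2 fold change was 0.12 ± 1.06 (SE), and -2.69 and past P without 7 dpci replicate 1. The summed level of the ER chaperone list was 11321 CPM in 7 dpci replicate 1 and 10948 CPM in 3 dpci replicate 4, and between 3050 and 6637 CPM in the other 6 libraries. These are the 2 libraries that stood apart, and the part of ER stress genes in other results was not tested.

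**Figure D3:**
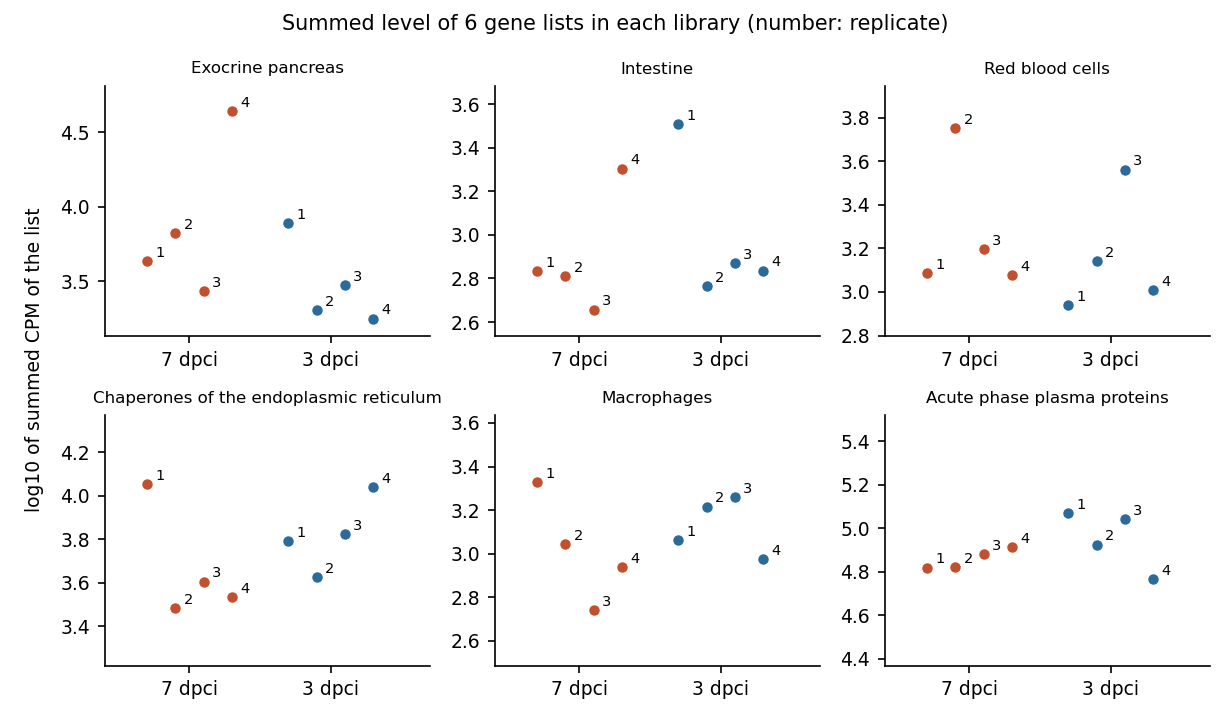
Each panel gives the summed CPM of 1 gene list on a log10 axis in the 4 libraries at 7 dpci (left, orange) and at 3 dpci (right, blue), labelled by replicate. Exocrine pancreas reads were highest in 7 dpci replicate 4 (43706 CPM), intestinal reads in 3 dpci replicate 1 (3241 CPM) and ER chaperones in 7 dpci replicate 1 (11321 CPM).

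Cytosolic chaperones moved in both directions. Of 36 heat shock genes 4 rose and 3 fell. hsp90ab1, the constitutive form of Hsp90, had 2385, 2475, 4332 and 3146 CPM at 7 dpci and 2313, 2014, 1681 and 1515 CPM at 3 dpci, with no overlap and a log2 fold change of 0.71 ± 0.24 (SE), or 0.51 and not past P without 7 dpci replicate 3. dnaja2a, a co-chaperone of Hsp70, averaged 144 ± 16.9 CPM at 7 dpci and 84.3 ± 14.4 CPM at 3 dpci (SD, 4 libraries each) and rose in all 8 fits. cct8 and cct6a, subunits of the chaperonin that folds actin and tubulin, rose by 0.76 and 0.61, and were lost without 7 dpci replicate 4 or 3 dpci replicates 2 and 3 (0.52 to 0.75) for cct8 and without 7 dpci replicate 2 or 3 dpci replicates 3 and 4 (0.43 to 0.59) for cct6a. With column totals dnaja2a (0.62), cct8 (0.68) and cct6a (0.51) were not past P. The stress-inducible hsp90aa1.2 fell by 1.74, with a level of 26.5 CPM in sham, 266 on day 1, 15.9 on day 3 and 4.74 on day 7. Its call was lost without 7 dpci replicate 2 (-1.56) or 3 dpci replicate 4 (-1.43). hspe1, the mitochondrial co-chaperonin, fell by 1.04 and was lost without 7 dpci replicates 2, 3 or 4 (-0.87, -0.93 and -0.93). hsf2, a heat shock transcription factor, fell by 0.89 and was lost without 7 dpci replicate 4 (-0.75) or 3 dpci replicate 2 (-0.66).

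Most proteasome genes had negative values, small in size. Of 45 subunits tested 36 had a negative log2 fold change, and the median was -0.24, between -0.41 and -0.10 with 1 library left out. Past P were 2 (4.44%, against 2.98% of all entries), psmb7 and psmb3, subunits of the core particle, which fell by 0.74 and 0.73. psmb7 was lost without 7 dpci replicates 1, 3 and 4 or 3 dpci replicates 3 and 4 (-0.77 to -0.61) and psmb3 without 7 dpci replicates 2, 3 and 4 or 3 dpci replicates 3 and 4 (-0.74 to -0.52).

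In the integrated stress response, which lowers translation and raises amino acid synthesis genes through Atf4, 2 of 28 genes fell and 1 rose, with a median of -0.07. psat1, an enzyme of serine synthesis, had 0, 0.821, 0.214 and 0.14 CPM at 7 dpci and 5.24, 0.883, 3.46 and 1.54 CPM at 3 dpci, or 7 counts against 65. The ratio of pooled CPM, 3 dpci over 7 dpci, was 8.70 (exact counting interval 3.99 to 22.5), and the groups were separated by little, 3 dpci replicate 2 lying next to 7 dpci replicate 2. At 1 dpci psat1 had averaged 50.8 CPM, against 2.35 CPM in sham. nupr1b, a stress-induced chromatin protein, was at 0.153, 1.31, 9.40 and 2.25 CPM at 7 dpci and 7.34, 46.1, 41.5 and 4.14 CPM at 3 dpci, overlapping through 7 dpci replicate 3, with a log2 fold change of -2.95 ± 1.04 (SE). atf4a averaged 51.4 ± 17.5 CPM at 7 dpci and 58.9 ± 5.35 CPM at 3 dpci, and atf3 10.04 ± 5.98 and 16.6 ± 6.41 CPM (SD, 4 libraries each). Neither was past the test, with log2 fold changes of -0.20 ± 0.30 (SE) and -0.72 ± 0.67 (SE), and both had stood higher at 1 dpci, at 181 and 132 CPM. The gene that rose, pycr1b of proline synthesis, had a log2 fold change of 1.26, and of 0.75 without 7 dpci replicate 3, when it was not past P.

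The genes of DNA replication and mitosis gave no gene past P in either direction, of 43 and 27 tested. pcna, the sliding clamp of DNA polymerase, had 20.9, 79.9, 31.6 and 12.8 CPM at 7 dpci and 24.3, 55.5, 64.9 and 36.3 CPM at 3 dpci. mki67, a marker of cycling cells, had 3.05, 24.6, 6.41 and 9.12 CPM at 7 dpci and 4.61, 11.3, 19.1 and 16 CPM at 3 dpci. In both genes 7 dpci replicate 2 was the highest of the 8 libraries and the groups overlapped widely, with log2 fold changes of -0.32 ± 0.69 (SE) and -0.24 ± 0.60 (SE). Leaving out that library gave -1.06 and -1.04, neither past P. top2a, the topoisomerase of mitotic chromosomes, was at 37.6 CPM in the same library and 13 CPM or less in the other 7, and mcm2 of the replicative helicase had a log2 fold change of 0.01 ± 0.58 (SE). The median of the DNA replication list was -0.30, -0.53 to -0.07 with 1 library left out, and 31 of its 43 genes had a negative log2 fold change. In the mitosis list 15 of 27 genes were negative. The mitosis list had a median of -0.12, which was above 0 in 4 of the 8 reduced fits, at 0.16 without 7 dpci replicate 1, 0.06 without 7 dpci replicate 3, 0.14 without 7 dpci replicate 4 and 0.07 without 3 dpci replicate 3, and at its lowest -1.04. The summed level of the mitosis list was 71.1, 329, 134 and 102 CPM at 7 dpci against 96.8, 169, 201 and 182 CPM at 3 dpci. A decline of single cell cycle transcripts between the 2 times was not detectable in the fit of all 17 libraries. Without 7 dpci replicates 2 and 4 together, the mitosis median was -1.21 and the DNA replication median -0.35. In that fit mki67 was at -1.46, pcna at -0.80, top2a at -1.07 and mcm2 at 0.14, none of them past P. The SD of pcna and of mki67 at 7 dpci exceeded the difference between the group means. The small negative median of the DNA replication list was not tested.

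Some genes for making ribosomes and starting translation rose. Of 92 ribosome biogenesis genes 9 rose and none fell, and of 61 translation factors and aminoacyl-tRNA synthetases 9 rose and none fell, where 4.37% of all entries rose. tsr2, a chaperone of a small subunit ribosomal protein, had 13.9, 11.3, 8.98 and 18.4 CPM at 7 dpci and 6.08, 7.80, 6.09 and 8.52 CPM at 3 dpci. The times did not overlap, with a log2 fold change of 0.88 ± 0.24 (SE). mdn1, midasin, the ATPase that strips assembly factors from the large subunit, was at 24.6, 21.8, 49.6 and 23.3 CPM at 7 dpci and at 11.5, 10.5, 14.7 and 17.2 CPM at 3 dpci (log2 fold change 1.14 ± 0.34 (SE)). It too was separated, with 7 dpci replicate 3 well above the rest. Rrp1, a nucleolar protein of rRNA processing, rose by 1.17, and tsr2, mdn1 and rrp1 were past P in all 8 fits. ncl, ddx21, utp4, sdad1, pno1 and nob1 also rose, by 0.64, 1.08, 0.57, 0.82, 0.68 and 0.71. ncl was lost without 7 dpci replicates 1 and 2 or 3 dpci replicates 2 and 3 (0.55 to 0.59), ddx21 without 7 dpci replicates 2 and 4 or 3 dpci replicates 3 and 4 (0.79 to 0.98) and utp4 without 7 dpci replicates 1 and 4 or 3 dpci replicates 1 and 2 (0.44 to 0.52). sdad1 was lost without 7 dpci replicate 4 or 3 dpci replicates 1, 3 and 4 (0.43 to 0.83), pno1 without 7 dpci replicates 2 and 4 or 3 dpci replicates 2, 3 and 4 (0.53 to 0.65) and nob1 without 7 dpci replicates 2 and 4 or 3 dpci replicate 3 (0.55 to 0.61). With column totals none of these 6 was past P (0.47 to 1.01). The median of the list was 0.17, and it was 0.04 with column totals and -0.08 without 7 dpci replicate 1.

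eif3c, a subunit of the initiation factor that loads ribosomes on mRNA, had 276, 277, 290.4 and 303 CPM at 7 dpci against 230.3, 193, 155 and 149.9 CPM at 3 dpci. The 7 dpci libraries were close to each other and all above 3 dpci, with a log2 fold change of 0.66 ± 0.21 (SE). eif3k had 34.2, 17.4, 74.8 and 40.4 CPM at 7 dpci and 31.9, 5.005, 5.93 and 5.92 CPM at 3 dpci, and 3 dpci replicate 1 alone lay among the 7 dpci libraries. The log2 fold change was 1.79 ± 0.59 (SE), and 2.89 without that library. eif3i, eif3ba, eif3ha, eif3ja and eif3g of the same complex rose by 0.80, 0.68, 0.71, 0.63 and 0.53. eif3i and eif3ba were not past P without 7 dpci replicate 2 (0.48 and 0.34), nor eif3ba without 3 dpci replicate 4 (0.59). eif3ha was lost without 7 dpci replicates 1 and 4 or 3 dpci replicates 2, 3 and 4 (0.60 to 0.68), eif3ja without 7 dpci replicates 1, 2 and 3 or 3 dpci replicates 1, 2 and 3 (0.52 to 0.64) and eif3g without 7 dpci replicates 1, 2 and 4 or 3 dpci replicates 2, 3 and 4 (0.40 to 0.55). The last of these 9 genes were eif4a2, an RNA helicase of initiation that rose by 1.48 and was lost without 7 dpci replicate 2 or 3 dpci replicates 2, 3 and 4 (0.90 to 1.33), and eif4ebp3l, a translation repressor (1.37), lost without 7 dpci replicate 2 or 3 dpci replicates 2, 3 and 4 (0.64 to 1.32). With column totals eif3ba (0.58), eif3ja (0.45), eif3g (0.46) and eif4ebp3l (1.27) were not past P, and the median of the translation list was 0.03 in place of 0.15. Of the 69 ribosomal protein genes none passed P, though 60 had a positive log2 fold change and the median was 0.18 (0.12 with column totals, 0.02 to 0.35 with 1 library left out, and -0.07 without 7 dpci replicates 2 and 4 together).

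Growth control genes moved singly. mdka, the growth factor midkine, had 10.7, 14.6, 2.14 and 8.14 CPM at 7 dpci and 37.7, 33.6, 32.3 and 12.8 CPM at 3 dpci, after 4.36 CPM on average in sham and 1.6 CPM at 1 dpci. The fitted log2 difference of mdka was -1.70 ± 0.54 (SE), and only 3 dpci replicate 4 and 7 dpci replicate 2 overlapped. hbegfb, an Egf receptor ligand, fell by 1.66 and was lost without 7 dpci replicates 1, 3 and 4 or 3 dpci replicates 3 and 4 (-1.65 to -1.30), with 19.4 CPM at 1 dpci and 0.993 CPM in sham. igf2a, insulin-like growth factor 2, rose by 1.32, at 102, 264, 145 and 192 CPM at 7 dpci and 113, 42.7, 80.4 and 46.3 CPM at 3 dpci. Its call was lost without 7 dpci replicate 2 (1.05) or 3 dpci replicates 2 (1.13) or 4 (1.16). btg1 and btg2, which restrain proliferation, rose by 1.16 and 2.34. Both had their highest level in 7 dpci replicate 4, at 1613 and 120.1 CPM, and neither was past P without it (0.85 and 1.04). btg2 was also lost without 3 dpci replicates 3 (2.19) or 4 (2.08).

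**Figure D4:**
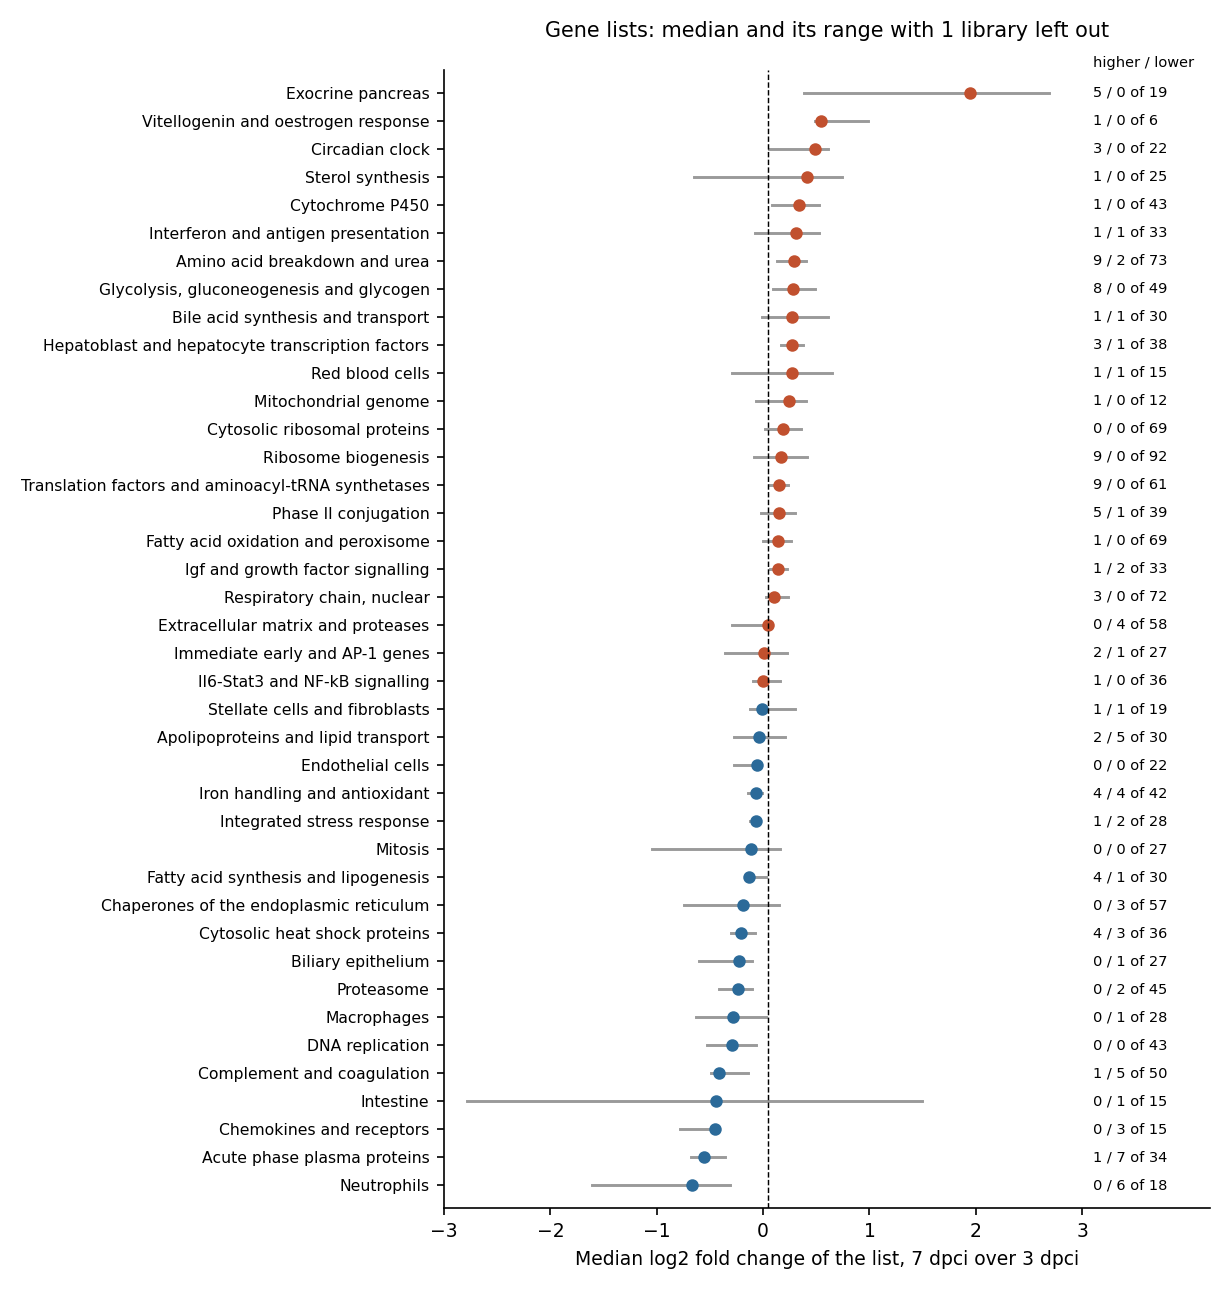
Each row is a gene list, with a point at the median log2 fold change at 7 dpci over 3 dpci, a grey bar over the 8 fits with 1 library left out, and at the right the number of members past P of 0.05 higher and lower of those tested. The dashed line is the median of all entries (0.04), and acute phase proteins (-0.55) and neutrophils (-0.67) lie lowest.

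The largest rises that separated all libraries were of genes low or nearly absent at 3 dpci. gamt, which makes creatine from guanidinoacetate and uses S-adenosylmethionine, had 0.458, 40.9, 148 and 56.7 CPM at 7 dpci and 0, 0, 0 and 0.237 CPM at 3 dpci. This is 1350 counts against 2, a ratio of 720 (exact counting interval 199 to 5952), and 7 dpci replicate 1 was close to the level of 3 dpci. gamt averaged 70.27 CPM in sham and 15.7 CPM at 1 dpci. Its sham libraries were divided, at 0.184, 68, 0.291, 141 and 142 CPM. thrsp, a regulator of lipid synthesis that responds to thyroid hormone in mammals, had 687, 6.89, 172 and 3.79 CPM at 7 dpci and 2.31, 0.883, 0.988 and 0.592 CPM at 3 dpci. All 4 were above 3 dpci but spread over 2 orders of magnitude, and the log2 fold change was 7.54 ± 1.87 (SE). The mean of thrsp was 853 CPM in sham, where libraries ranged from 1.01 to 3048 CPM, and 0.907 CPM at 1 dpci. ctsd, the lysosomal protease cathepsin D, was at 16, 34.6, 16.5 and 17 CPM at 7 dpci and 0, 1.03, 1.15 and 0.71 CPM at 3 dpci. With 514 counts against 20 it rose by 4.78 ± 1.14 (SE) on the log2 scale. The sham libraries were divided, at 25.3, 18.4, 29.1, 0.228 and 0.203 CPM.

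The entry si:ch211-171h4.3 had 3.05, 6.07, 14.7 and 3.37 CPM at 7 dpci against 0.629, 0.589, 0 and 0.237 CPM at 3 dpci, 150 counts against 9 and a ratio of 17.8 (9.12 to 39.6, exact counting interval). It had the smallest P of all rises, and no role is assigned to it in the sources used here. The entry si:dkey-11f4.20 had 38.9, 6.24, 105 and 26.2 CPM at 7 dpci and 0.629, 1.03, 0.659 and 0.237 CPM at 3 dpci. zgc:171497 was at 37.1, 19.9, 38.9 and 16.8 CPM at 7 dpci and 0, 6.48, 5.77 and 7.22 CPM at 3 dpci, with no count in 3 dpci replicate 1. Their log2 fold changes were 6.08 ± 1.55 (SE) and 2.51 ± 0.61 (SE), both without overlap. The other rises by this rule were zgc:171242 (3.67, and 6.23 without 3 dpci replicate 2), si:dkey-215k6.1 (3.04) and si:ch211-120g10.1 (2.62), all past P in the 8 fits, and XLOC_024472 (2.28), fggy, a carbohydrate kinase (1.94), and iffo1b (1.86), all as log2 fold changes. fggy and iffo1b were not past P without 7 dpci replicate 3, at 1.27 and 1.12, and XLOC_024472 was lost without 7 dpci replicates 1 and 3 or 3 dpci replicates 2, 3 and 4 (1.64 to 2.39).

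Several enzymes of amino acid breakdown and of methyl group metabolism were higher at 7 dpci. Of 73 tested 9 rose (12.3%) and 2 fell (2.74%), against 4.37% and 2.98% of all entries. Of the rises 7 were called, and of the falls 1. The median of 0.29 stayed between 0.13 and 0.40 with 1 library left out. ahcy, which hydrolyses S-adenosylhomocysteine after methyl transfer, had 1507, 2377, 2265 and 1500.2 CPM at 7 dpci, against 908, 587, 533 and 441 CPM at 3 dpci. Every 7 dpci library was above every 3 dpci library, with a log2 fold change of 1.63 ± 0.35 (SE). The mean was 2312 CPM in sham, 514 on day 1, 617 on day 3 and 1912 on day 7. gnmt, which consumes S-adenosylmethionine to methylate glycine, was at 48.8, 188, 66.0 and 35 CPM at 7 dpci and 41.9, 31.6, 18.8 and 20.5 CPM at 3 dpci. Its rise of 1.59 ± 0.46 (SE) on the log2 scale was 0.83 without 7 dpci replicate 2, and the lowest 7 dpci library lay below the highest at 3 dpci. mat2aa, which makes S-adenosylmethionine and is the form of growing rather than resting liver in mammals, went the other way and fell by 1.04, lost without 7 dpci replicates 1 (-1.003) or 3 (-0.82) or 3 dpci replicate 4 (-0.58).

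gldc, the glycine decarboxylase, had 29.4, 56.9, 95.7 and 48.0 CPM at 7 dpci and 18.4, 18.3, 13.8 and 25.0 CPM at 3 dpci, with no overlap and a log2 fold change of 1.6 ± 0.47 (SE). hpda, a dioxygenase of tyrosine breakdown, was at 3810.0, 2229.9, 8599 and 5433 CPM at 7 dpci and 3545, 1052, 1168 and 437 CPM at 3 dpci. The groups overlapped through 3 dpci replicate 1, and the log2 fold change of 1.69 ± 0.52 (SE) was past P in all 8 fits. Tat, the step before it, rose by 1.54, and by 1.04 without 7 dpci replicate 3, when it was not past P. cdo1, which oxidises cysteine, rose by 1.58 with no overlap but was lost without 7 dpci replicate 3 (0.99) or 3 dpci replicates 3 (1.29) or 4 (1.34). csad, the next enzyme towards taurine, had a log2 fold change of -2.5 through 3 dpci replicate 3 (167 CPM), and the value was -0.75 and not past P without it and -2.21 and not past P without 7 dpci replicate 1. hal, got1 and tdh, of histidine, aspartate and threonine metabolism, rose by 1.13, 1.24 and 1.80. hal was lost without 7 dpci replicates 2 and 3 or 3 dpci replicates 3 and 4 (0.82 to 0.99), got1 without 7 dpci replicate 3 or 3 dpci replicates 1, 2, 3 and 4 (0.81 to 1.3) and tdh without 7 dpci replicates 1 and 3 or 3 dpci replicates 2, 3 and 4 (1.44 to 1.67), and tdh was 2.79 without 3 dpci replicate 1.

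In glycolysis, gluconeogenesis and glycogen metabolism 8 of 49 genes rose (16.3%, against 4.37% of all entries) and none fell. The median was 0.28 (0.10 to 0.48 with 1 library left out). pklr, the liver pyruvate kinase, was at 2468, 1892, 2906 and 1035 CPM at 7 dpci and 1041, 223, 378 and 290.1 CPM at 3 dpci, the sole overlap being of 7 dpci replicate 4 with 3 dpci replicate 1. eno3, an enolase, was at 2006, 1892, 2227 and 1560.5 CPM at 7 dpci and 1601, 999.5, 990.1 and 910.3 CPM at 3 dpci. Log2 fold changes were 2.1 ± 0.59 (SE) for pklr and 0.77 ± 0.26 (SE) for eno3, and both were past P in all 8 fits. Gyg1a, which primes glycogen, rose by 0.98 without overlap and in all 8 fits, while gapdh rose by 1.18 through 7 dpci replicate 2 (9740.4 CPM), the value being 0.38 without it and not past P. pck1, which commits carbon to glucose synthesis, rose by 2.05 and was lost without 7 dpci replicates 3 or 4 (1.90 and 1.85) or 3 dpci replicates 2, 3 or 4 (2.13, 1.67 and 2.01).

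Of 30 genes of fatty acid synthesis and lipogenesis 4 rose (13.3%) and 1 fell, with a median of -0.13, the rises being of thrsp, elovl2, lpin2 and fabp10a and the fall of fabp11a. ucp1, a mitochondrial uncoupling protein, had 2778, 11732, 12012 and 10848 CPM at 7 dpci and 3223, 3655, 2988 and 2182 CPM at 3 dpci. At 7 dpci replicate 1 was within the range of 3 dpci and the other 3 libraries far above it, with a log2 fold change of 1.63 ± 0.48 (SE). It was the only one of 69 genes on the list of fatty acid oxidation and peroxisomes past P. lpin2, a phosphatidate phosphatase of triglyceride synthesis, had 37.4, 60.07, 104 and 61.6 CPM at 7 dpci and 36.7, 33.3, 34.3 and 26.7 CPM at 3 dpci, and fabp11a, a fatty acid-binding protein related to the mammalian adipocyte and macrophage form, 23.2, 62.5, 47.2 and 28.1 CPM at 7 dpci and 136, 69.0, 130.3 and 107 CPM at 3 dpci. Neither overlapped, lpin2 rising by 1.01 ± 0.28 (SE) and fabp11a having a log2 fold change of -1.46 ± 0.37 (SE), both past P in all 8 fits. elovl2, an elongase of polyunsaturated fatty acids, rose by 1.92 and was lost without 7 dpci replicates 1 and 3 or 3 dpci replicates 1, 2 and 3 (1.45 to 1.91).

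Lipid transport genes were divided. Of 30 tested 5 fell and 2 rose. apom, an apolipoprotein of high density lipoprotein, had 1161, 2609, 1327 and 2234 CPM at 7 dpci and 6219, 3831, 3825 and 1762 CPM at 3 dpci, with a log2 fold change of -1.09 ± 0.41 (SE), or -0.78 and not past P without 3 dpci replicate 1. Lcat, which esterifies cholesterol on such particles, and abca1b, which exports cholesterol to them, fell by 0.93 and 1.91 in all 8 fits, abca1b having averaged 134 CPM at 1 dpci and 6.09 CPM in sham. lipg, an endothelial lipase, fell, with a log2 fold change of -2.46, and was lost without 7 dpci replicates 2, 3 and 4 or 3 dpci replicates 1, 3 and 4 (-2.54 to -2.08). apoeb, an apolipoprotein E gene, fell by 1.11 and was past P in 2 of the 8 fits, those without 7 dpci replicate 2 (-1.51) and 3 dpci replicate 4 (-1.33). Apobb.1, the apolipoprotein B of secreted particles, rose by 0.88, and by 0.68 and not past P without 7 dpci replicate 3. ldlra, a receptor for low density lipoprotein, rose by 1.13 and was lost without 7 dpci replicates 2 and 3 or 3 dpci replicates 2, 3 and 4 (0.73 to 1.05). apoa1b, the most abundant of the list, overlapped between the times at 32152 ± 12647 CPM at 7 dpci and 40443 ± 27347 CPM at 3 dpci (SD, 4 libraries each).

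Among hepatocyte identity genes, fabp10a, whose promoter drives the reporter in these fish, had 14717, 25857, 24535 and 8768 CPM at 7 dpci and 8743, 12527, 11659 and 1393 CPM at 3 dpci. The groups overlapped, with 3 dpci replicate 4 far below all others, and the log2 fold change of 1.11 ± 0.49 (SE) was lost without 7 dpci replicates 2 (0.90) or 3 (0.94) or 3 dpci replicate 1 (1.11). It averaged 18973 CPM in sham, 6326 on day 1, 8581 on day 3 and 18469 on day 7. nr5a2, a nuclear receptor of bile acid and cholesterol metabolism, was at 206, 165, 266 and 123.4 CPM at 7 dpci and 111, 87.7, 60.9 and 112 CPM at 3 dpci. It did not overlap and rose by 1.03 ± 0.33 (SE) in all 8 fits, though with column totals nr5a2 (0.86) and rxrba (0.61) were not past P. Of 38 hepatocyte transcription factors 3 rose and 1 fell, the others being rxrba (0.73, lost without 7 dpci replicate 4 at 0.49 or 3 dpci replicate 1 at 0.65), nr5a5 (1.18, lost without 7 dpci replicate 2 or 3 dpci replicates 2, 3 and 4 (0.48 to 1.18)) and xbp1, which fell. Cytochrome P450 genes had 1 of 43 past P, cyp2k19, which rose by 0.93 and was lost without 7 dpci replicates 1 and 3 or 3 dpci replicates 2 and 3 (0.57 to 0.96). Conjugating enzymes had 5 of 39 higher and 1 lower, among them tpmt.1, which methylates thiols, at 15.4, 8.53, 48.9 and 44.3 CPM at 7 dpci and 11, 9.13, 15.3 and 12.3 CPM at 3 dpci. Its rise of 1.29 ± 0.42 (SE) came with an overlap through 7 dpci replicate 2 and was past P in all 8 fits, while gstp1, a glutathione transferase, rose by 1.24 and was lost without 7 dpci replicates 2 and 4 or 3 dpci replicates 2 and 4 (0.88 to 1.18).

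Nuclear genes of the respiratory chain had 3 of 72 past P, all higher, which at 4.17% is no more than the 4.37% of all entries. The median of 0.11 turned to -0.03 with column totals. cox5b2, a subunit of complex IV, averaged 242 ± 48.7 CPM at 7 dpci and 122 ± 43.1 CPM at 3 dpci (SD, 4 libraries each), without overlap and with a log2 fold change of 0.99 ± 0.36 (SE). ndufs7, a subunit of complex I, had no count in any library at 3 dpci, and 0, 22.5, 6.20 and 4.63 CPM at 7 dpci. With 199 counts at 7 dpci this is at least 17.4-fold higher than the floor of 3 counts per library, although 7 dpci replicate 1 also had none and the mean in sham and at 1 dpci was 9.84 and 17.2 CPM. For ndufs7 the sham libraries were divided as well, at 0, 13, 0.583, 20.1 and 15.6 CPM. atp5mc3b, a subunit of ATP synthase, rose by 0.75 and was lost without 7 dpci replicate 2 (0.47) or 3 dpci replicates 3 (0.76) or 4 (0.57).

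Of 42 genes of iron handling and antioxidant defence 4 rose and 4 fell (9.52% each, against 4.37% and 2.98% of all entries). Besides tfr1b the falls were fthl28, a ferritin heavy chain-like gene (-2.75), gpx4b (-0.86) and gpx4a (-0.83), which reduce lipid peroxides. fthl28 had 7.32, 3.61, 0.214 and 1.12 CPM at 7 dpci and 37.5, 3.68, 20.9 and 22 CPM at 3 dpci and averaged 58.3 CPM at 1 dpci and 3.87 CPM in sham. gpx4b and fthl28 were past P in all 8 fits, and gpx4a was lost without 7 dpci replicate 4 (-0.73) or 3 dpci replicates 2 (-0.64) or 3 (-0.70). The genes that rose were prdx2 (1.08), srxn1 (0.79) and gsr (1.07), which act in thiol redox cycles, and keap1b (1.05), a sensor of electrophiles. prdx2 was lost without 7 dpci replicates 2 and 3 or 3 dpci replicates 2 and 4 (0.83 to 1.05), srxn1 without 7 dpci replicate 1 or 3 dpci replicates 2 and 3 (0.62 to 0.69) and gsr without 7 dpci replicates 1 and 4 or 3 dpci replicates 2, 3 and 4 (0.47 to 1.09), each left out singly. keap1b was lost without 7 dpci replicate 2 or 7 dpci replicate 4 (0.69 to 0.82), and turned to -0.14 without both. With column totals srxn1 (0.66), gsr (1.05) and keap1b (0.93) were not past P.

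Calls among matrix and non-parenchymal genes were few in number, though 3 of 58 matrix and protease genes were called lower, against 1.18% of all entries. At P of 0.05, 4 of the 58 fell (6.9%, against 2.98% of all entries) and none rose. Those that fell were mmp9 and adam8a above, nid2a, a basement membrane nidogen, and loxl1, which cross-links elastin. nid2a had 6 counts at 7 dpci and 76 at 3 dpci (ratio of 3 dpci to 7 dpci 11.9, exact counting interval 5.21 to 33.4) and lost P without 3 dpci replicate 4, at a log2 fold change of -2.18, and loxl1 fell by 0.91 and was lost without 7 dpci replicates 1, 3 and 4 or 3 dpci replicates 3 and 4 (-0.88 to -0.80). col1a2, a chain of type I collagen, was at 31.3, 48.3, 23.7 and 22.7 CPM at 7 dpci and 63.7, 50.9, 38.4 and 22.4 CPM at 3 dpci and did not pass (-0.48), and fn1b, a fibronectin, averaged 2393 ± 287 CPM at 7 dpci and 2317 ± 1308 CPM at 3 dpci (SD, 4 libraries each). The median of the list was 0.04, the same as that of all entries, and -0.09 with column totals. No endothelial gene of 22 passed. Of 19 stellate cell and fibroblast genes colec11 rose and ifitm1 fell (-1.64, lost without 7 dpci replicates 2 and 3 or 3 dpci replicates 1 and 4 (-1.59 to -0.70)). Among 27 biliary genes anxa4 and sox9b, markers of bile duct cells, had log2 fold changes of -0.23 ± 0.46 (SE) and -0.02 ± 0.45 (SE), and without 7 dpci replicate 2 these were -0.77 and -0.36. The only biliary gene past P was krt4, an epithelial keratin, with 2 counts at 7 dpci and 785 at 3 dpci. Of those, 3 dpci replicate 1 held nearly all (164 CPM), and without it the log2 fold change was 0.58.

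Of 22 clock genes 3 were called higher and none lower (median 0.49, and 0.06 to 0.61 with 1 library left out). nfil3-2, a transcriptional repressor of the clock output, had 3.66, 155, 37.8 and 62.3 CPM at 7 dpci and 17.6, 9.72, 2.80 and 5.68 CPM at 3 dpci. rorcb, a nuclear receptor of the same circuit, had 1.07, 40.2, 5.77 and 31.7 CPM at 7 dpci and 4.82, 3.68, 0.988 and 3.31 CPM at 3 dpci. In both 7 dpci replicate 1 was low and replicates 2 and 4 were high, so that the times overlapped, and the log2 fold changes were 2.86 ± 0.78 (SE) and 2.62 ± 0.76 (SE), past P in all 8 fits. cry1bb, a cryptochrome, rose by 1.69 and lost P without 7 dpci replicate 4 (1.29). Without 7 dpci replicates 2 and 4 together none of the 3 was past P, with log2 fold changes of 1.2 for nfil3-2, 0.05 for rorcb and 0.08 for cry1bb. The hour of collection is not given in the sources used here, and its part in these values was not tested.

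Markers of neighbouring tissue differed between libraries. The 19 exocrine pancreas genes had a summed level of 2730 to 43706 CPM at 7 dpci and of 1777 to 7722 CPM at 3 dpci, and 5 of them rose, all through 7 dpci replicate 4. prss1, a trypsin, had 936, 1415, 879 and 8329 CPM at 7 dpci and 1436, 472, 759 and 626 CPM at 3 dpci. Without 7 dpci replicate 4 its log2 fold change of 1.81 ± 0.84 (SE) was 0.39 and not past P, as were amy2a (3.12 and 0.83), zgc:92590 (3.39 and 1.47), cpa4 (2.40 and 0.60) and cel.2 (2.14 and 0.71). prss1, cpa4 and cel.2 were also lost without 3 dpci replicates 2, 3 or 4, amy2a without 3 dpci replicate 2 and zgc:92590 without 3 dpci replicate 4, and cel.2 was 3.40 without 3 dpci replicate 1. The neutrophil list holds 1 of these pancreas genes, cpa5, and summed without it ranged from 204 to 599 CPM at 7 dpci and from 346 to 1202 CPM at 3 dpci. The 15 intestinal genes summed to 454 to 2017 CPM at 7 dpci and 581 to 3241 CPM at 3 dpci, the highest being 7 dpci replicate 4 and 3 dpci replicate 1, which is also the library with the krt4 reads. fabp6, of the intestinal list, fell by 5.42 through 3 dpci replicate 3 alone and had a log2 fold change of 1.66 without it, and was lost also without 7 dpci replicates 1, 3 or 4 (-4.999, -5.08 and -4.98). Red cell genes summed to 1190 to 5662 CPM at 7 dpci and 868 to 3649 CPM at 3 dpci, highest in 7 dpci replicate 2 and 3 dpci replicate 3, with 1 of 15 higher (hemgn, 1.09, lost without 7 dpci replicate 2 or 3 dpci replicates 1 and 4 (0.66 to 0.95)) and 1 lower (ca2, -0.88, lost without 7 dpci replicates 2 and 3 or 3 dpci replicates 1 and 4 (-0.80 to -0.70) and with column totals (-0.97)). The part of these tissues in the other results was not tested. The falls of BX908782.3, serpinb1, xbp1 and fabp11a and the rises of ahcy, gldc and eif3c were past P without any 1 of these libraries. Leaving out 1 library at a time cannot test for neighbouring tissue carried over into several of them.

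**Figure D5:**
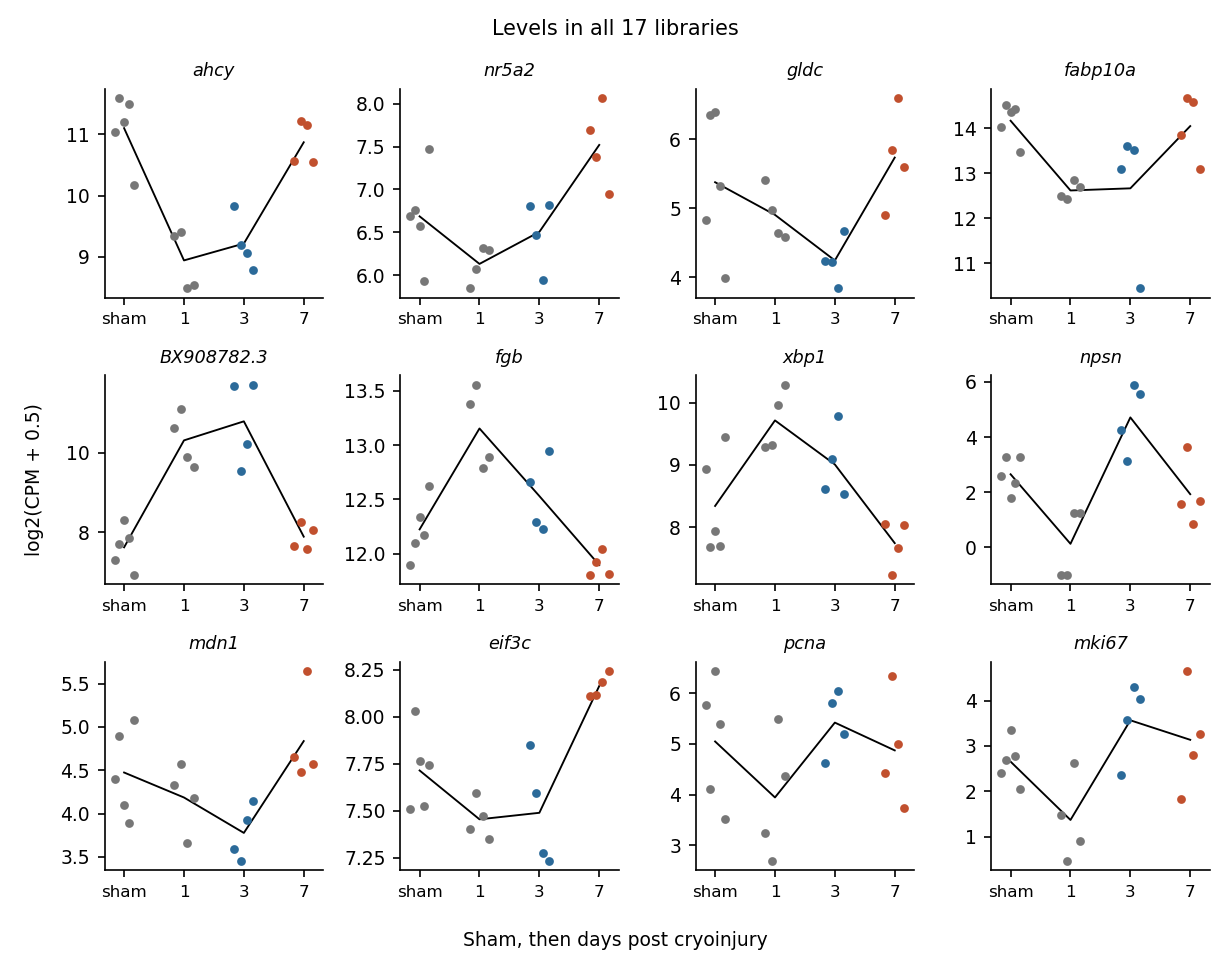
Each panel shows 1 gene as log2(CPM + 0.5) in sham (5 libraries) and at 1, 3 and 7 dpci (4 each), with a line through the group means. ahcy and nr5a2 have means at 7 dpci above those at 1 and 3 dpci, BX908782.3 and xbp1 have means at 7 dpci below those at 1 and 3 dpci, and pcna and mki67 overlap between 3 and 7 dpci.

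Set beside the other groups, the genes that changed between 3 and 7 dpci fell into different courses by their mean levels. Both ahcy and fabp10a were highest in sham, low at 1 and 3 dpci and back near the sham mean at 7 dpci. gldc averaged 49.6 CPM in sham, 30.3 on day 1, 18.9 on day 3 and 57.5 on day 7, and mdn1 22.8, 18.2, 13.4 and 29.8 CPM in the same order, so that both were lowest on day 3. eif3c was at 211 CPM in sham, 175 on day 1, 182 on day 3 and 287 on day 7, and its lowest 7 dpci library exceeded the highest of sham. xbp1, agt and fgb were highest at 1 dpci, whereas npsn, mdka and serpinb1 were highest at 3 dpci, serpinb1 with 68.2, 119.7, 289.7 and 78.7 CPM from sham to 7 dpci. The comparisons with sham and 1 dpci share the 3 and 7 dpci libraries with the contrast described here, and these levels are given as a description with no test.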

How the data were processed

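Poly(A) RNA by the labels, prepared with a stranded total RNA kit by the protocol, was sequenced as paired-end reads from 17 adult zebrafish liver libraries. The authors trimmed reads with cutadapt 1.16, mapped them with HISAT2 2.1.0 and made the deposited counts per gene with featureCounts 1.6.0. The labels name danRer10 and the methods Ensembl build 11, and strand and multi-mapping settings are not given in the sources used here. The deposited CPM values are each count over its column total, matched here to within 5e-04, and were not tested. Names of 7966 of 8513 entries (93.57%) matched the reference tables. Coordinates and sequences were not used here.

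Counts of all 17 libraries entered 1 edgeR 4.0.16 fit (R 4.3.3, filterByExpr, TMM, quasi-likelihood test, a mean per condition), and 7 dpci minus 3 dpci was the contrast. Benjamini-Hochberg adjustment covered 8412 entries. Principal components and correlations used log2 CPM with a prior count of 2. Under a floor of 3 counts per library folds are ratios of pooled CPM with exact intervals, which cover counting error only. Counting error is set by totals of 5806843 to 6745858 counts per library, and the spread between libraries comes on top of it.

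Named genes were the 12 largest falls and 12 largest rises among called genes with a mean of at least 5 CPM and no overlap, up to 5 members per list with the smallest P, the abundant members of a list, and atf4a, atf3, anxa4, fabp10a, mpx, mfap4 and pcna. BX908782.2, ndufs7, cct8, cct6a, ncl, ddx21, utp4, sdad1, eif3ha, eif3ja, eif3g, eif4ebp3l, lipg, prdx2, srxn1 and gsr were added after their values were seen. A gene that the rule named is not reported here. The members and lists were chosen with earlier results of these data known.

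Alternatives were DESeq2 1.42.0 and its size factors, the exact test, no low-count filter, a linear fold of 1.5, the 8 libraries alone, a block for replicate number, a fit with vitellogenin genes taken out and another with them as a covariate, the 2 libraries whose names lack the letter R left out, and each library left out in turn. Leaving out 7 dpci replicate 1 and 3 dpci replicate 4 together was chosen after seeing the data. Replicate numbers were taken from the labels and, apart from the block for replicate number, were not used to pair the samples. The tests were tried on simulated data. Figures used Python 3.11.15 and matplotlib 3.10.9.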

Additional observations from a re-analysis of the deposited data

Results flagged for a closer look

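Among 186 groups of 4 libraries examined, 24 held a library far from the other 3 by Dixon's criterion, applied to CPM without a log scale. For normally distributed values chance alone exceeds it in about 1 of 20 groups. CPM need not be normal and some are 0, and the groups share libraries and genes. The 24 therefore cannot be set against that rate. Single libraries at 7 dpci stood highest for BX908782.2 (1051 CPM), tfr1b (8.85 CPM), lect2l (72.2 CPM), mpx (44.2 CPM) and hspa5 (3537 CPM), all in replicate 1, and replicate 1 stood lowest for ucp1 (2778 CPM). Replicate 2 stood highest for ctsd (34.6 CPM), npsn (12 CPM) and krt4 (0.328 CPM), replicate 3 for pcsk6 (5.77 CPM) and mdn1 (49.6 CPM), and replicate 4 for prss1 (8329 CPM). At 3 dpci replicate 1 stood highest for eif3k (31.9 CPM), eno3 (1601 CPM) and krt4 (164 CPM), and replicate 4 for si:dkey-22i16.7 (332 CPM) and gamt (0.237 CPM).

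Among summed levels at 7 dpci, ER chaperones were highest in replicate 1 (11321 CPM), red blood cell genes in replicate 2 (5662 CPM), and exocrine pancreas (43706 CPM), neutrophil (3624 CPM) and intestinal genes (2017 CPM) in replicate 4. The neutrophil list shares cpa5 with the pancreas list. At 3 dpci intestinal genes were highest in replicate 1 (3241 CPM) and integrated stress response genes lowest in replicate 4 (643 CPM).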

How the results depend on the processing

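With a linear fold of 1.5 in place of the log2 threshold, 356 entries were called higher and 243 lower. In the fit of the 8 libraries alone, 81 were called higher and 66 lower of 8139 tested. Of the 147 genes examined singly that were past P, 135 had a value in that fit and 38 of these lost P. Without the 2 libraries at 7 dpci whose names lack the letter R, 211 were called lower and 1 entry passed adjustment, 72 of 147 genes past P lost it, and 6 turned: serpina7 to -2.58, stat1b to -0.81, btg2 to -0.40, keap1b to -0.14, zgc:92590 to -0.84 and cpa4 to -0.13. Without 7 dpci replicate 1 and 3 dpci replicate 4 together, an alternative chosen after seeing the data, 159 were called lower. With column totals, 226 were higher at P of 0.05, 2 passed adjustment, 20 of the 147 genes lost P, and higher calls were 42.2% of all calls against 51% with TMM. DESeq2 gave 37 adjusted calls and the exact test 15.

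With each library left out in turn, calls higher ranged from 87 to 195 (195 without 3 dpci replicate 1), calls lower from 83 to 199 (199 without 7 dpci replicate 1), entries at P of 0.05 from 261 to 513 higher and from 192 to 491 lower, and adjusted calls from 0 to 2. Single genes turned without 1 library: serpina7 ranged from -2.26 (without 7 dpci replicate 4) to 3.76, hspa5 from -2.69 (without 7 dpci replicate 1) to 1.31, krt4 from -10.95 to 0.58 (without 3 dpci replicate 1) and fabp6 from -10.17 to 1.66 (without 3 dpci replicate 3). The cause was not tested. Of 3174 gene values under an alternative, 2626 kept their side of the threshold, 514 lost it and 24 gained it. The other 10 changed sign and were past P in the fit of all 17 libraries or in the alternative. Values past P in neither were counted with the 2626 even where their sign changed. An example is hamp, at -1.89 with all 17 libraries and 0.28 without 3 dpci replicate 4. Of 779 list medians, 759 moved by no more than the spread between libraries. That spread could exceed the median itself, as for the mitosis list (median -0.12, SD 0.76), so the 759 include medians that changed sign. The sign changed in 5 alternatives for mitosis, 10 for immediate early and AP-1 genes and 8 for Il6-Stat3 and NF-kB signalling. It changed in 0 for acute phase proteins and 0 for neutrophils.

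The replicate number as a block gave 83 calls higher and 95 lower, 313 and 258 at P of 0.05, and no adjusted call. Same-numbered libraries showed no common deviation (r from -0.257 to 0.192, over 0.1 for 1 of 4 numbers). With 4 numbers these correlations cannot settle whether the samples are paired. With 4 libraries a group and a common biological coefficient of variation of 0.516, small changes of single genes could not be resolved.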

Other observations

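The following families were noticed after their values were seen and carry no test. Of 16 subunits of the translation initiation factor eIF3, 15 had a positive log2 fold change at 7 dpci over 3 dpci and 9 rose at P of 0.05, with a median of 0.61, or 0.49 with column totals. All 8 subunits of the cytosolic chaperonin had positive values, 2 of them past P, with a median of 0.35, or 0.22 with column totals. All 4 antiproliferative genes of the BTG and TOB family had positive values, 3 past P, with a median of 1.33, or 1.29 with column totals. Of these, btg1 and btg2 lost P without 7 dpci replicate 4 (0.85 and 1.04). Without 7 dpci replicates 2 and 4 together btg1 was at 0.63 and btg2 at -0.40, neither past P. Among 7 genes that build glycosylphosphatidylinositol anchors 2 had positive values and 3 fell, with a median of -0.73, or -0.81 with column totals.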
